A study of Mus musculus with 8 samples.

Results

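The peaks described here are 444 of the 2445 sites (18.2%) in the GATA2 peak list of 3T3-L1 cells that lie in 3 dense runs on mouse chromosome 10. They were taken by position, as every peak that overlapped either of 2 stretches of the mm10 assembly, the first between the genes Acss3 and Lin7a and the other from the lysozyme gene Lyz2 through Mdm2 to the nuclear pore gene Nup107. 60 peaks lay in the first stretch and 384 in the other. The stretches were chosen by the number and closeness of peaks in this same list, so the counts, densities, widths and gaps of these peaks are given as a description, without a test. Runs of these peaks are called blocks below when at least 8 followed each other with gaps of at most 20000 bp. A run of 10 peaks on chromosome 17 would also meet this rule. It lies outside the 2 stretches, so its peaks are counted below as outside the blocks.

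The study mapped GATA2 by chromatin immunoprecipitation and sequencing (ChIP-seq) in 2 mouse lines at passages 4 to 6. One was 3T3-L1, a fibroblast line committed to become fat cells, and the other C3H10T1/2, an embryonic fibroblast line that can form fat, bone, cartilage or muscle. No genetic change or treatment is named for either line. Each line had 2 libraries made with an antibody against GATA2 and 2 input libraries, with DNA of separate precipitations pooled before a library was made, and 1 list of peak positions per line was analysed. The lists hold 2445 peaks for 3T3-L1 and 1557 for C3H10T1/2, with no height, score or p-value, so the depth behind them is unknown and no value per library or per replicate could be given. Expression markers of the lines, input coverage and DNA copy number over these stretches were not analysed here. All positions are mm10, counted from 1.

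GATA2 is a zinc finger transcription factor that binds DNA at sites with the core letters GATA and keeps precursor cells of blood and fat immature. A peak list of such a factor usually holds short, separate sites scattered over the genome. Mdm2 encodes the ubiquitin ligase that marks the tumour suppressor p53 for destruction, and p53 in turn activates Mdm2 from a promoter inside the gene. The gene was first found on small extra chromosomes that carried many copies of it in a transformed 3T3 line.

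Member peaks reached the RefSeq promoter windows (250 bases before to 50 bases after a start site, GRCm38.p6) of 3 of the 8 protein-coding genes named here: Mdm2, its neighbour Slc35e3 and the carboxypeptidase gene Cpm. The start sites of Mdm2 and Slc35e3 lay inside a member. Over all genes, 0.126% of 32619 such windows overlapped a 3T3-L1 peak and 0.147% a C3H10T1/2 peak, and 0.0491% of start sites lay inside a 3T3-L1 peak. Nothing is read from these shares, because the genes lie in stretches chosen for their peaks. The 250 upstream bases are shown because members cover all of them at Mdm2 and Slc35e3 and 100 of them at Cpm. In the first 2 lines capitals mark the letters GATA or their reverse complement TATC. In the Cpm line capitals mark the 100 covered bases, those of the peak from 117629307 to 117629406, which lies wholly in the window.
Mdm2, chr10:117710759-117711008, minus strand: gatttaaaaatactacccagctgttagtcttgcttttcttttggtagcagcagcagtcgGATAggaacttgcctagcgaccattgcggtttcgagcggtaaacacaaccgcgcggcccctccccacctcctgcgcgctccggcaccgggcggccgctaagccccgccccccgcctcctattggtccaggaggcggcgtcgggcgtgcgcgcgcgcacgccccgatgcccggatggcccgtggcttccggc
Slc35e3, chr10:117746359-117746608, minus strand: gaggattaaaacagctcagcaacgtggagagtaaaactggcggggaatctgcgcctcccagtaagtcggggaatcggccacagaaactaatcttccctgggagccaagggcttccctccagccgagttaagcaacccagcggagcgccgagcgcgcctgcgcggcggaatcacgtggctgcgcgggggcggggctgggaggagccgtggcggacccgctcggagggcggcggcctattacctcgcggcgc
Cpm, chr10:117629250-117629499, plus strand: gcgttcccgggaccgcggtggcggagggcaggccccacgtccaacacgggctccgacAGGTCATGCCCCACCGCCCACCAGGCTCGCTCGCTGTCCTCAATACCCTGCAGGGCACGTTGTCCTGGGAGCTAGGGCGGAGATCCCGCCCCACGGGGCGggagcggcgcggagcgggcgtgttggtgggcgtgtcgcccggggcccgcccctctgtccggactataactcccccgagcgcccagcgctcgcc
The Mdm2 stretch held GATA at 1 place, with its first letter 191 bases before the start site, and the other 2 held neither GATA nor TATC. One of these words occurred in the upstream bases of 53.5% of all windows. The 100 bp Cpm peak, whose sequence is complete here, held neither on either strand. G and C made up 65.6% of the Mdm2 stretch, 66.4% of that of Slc35e3 and 74.4% of that of Cpm, against a median of 52.4% over all windows. The table of promoters covered no other member peak, so the letters under the remaining members are not given.

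The largest block had 376 peaks over 413 kb, from 117377462 to 117790202, and Mdm2 stood at its most covered point. Member peaks covered 74.4% of the Mdm2 body (117688875 to 117710758, minus strand), against 17.5% of the block as a whole. The 33 peaks on the gene were between 75 and 3323 bp wide, with a median of 367 bp, and their median gap was 144 bp. The longest stretch of the gene without a peak was 534 bp. Of the 20 peaks of the block that were wider than 500 bp, 11 lay on Mdm2.

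The widest of all 2445 peaks of the list lay over the Mdm2 start site. It ran for 3323 bp from 117708303 to 117711625, with 2456 bp inside the gene and 867 bp beyond the start. Its neighbours on Mdm2 from 117706534 to 117707969 (1436 bp) and from 117697702 to 117698972 (1271 bp) were next in width in the block. The widest C3H10T1/2 peak anywhere was 1705 bp. The other end of Mdm2 also lay under a member, a peak of 542 bp from 117688858 to 117689399. Coverage did not lean to either end of the gene, at 74.6% below its midpoint and 74.1% above it.

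**Figure D1:**
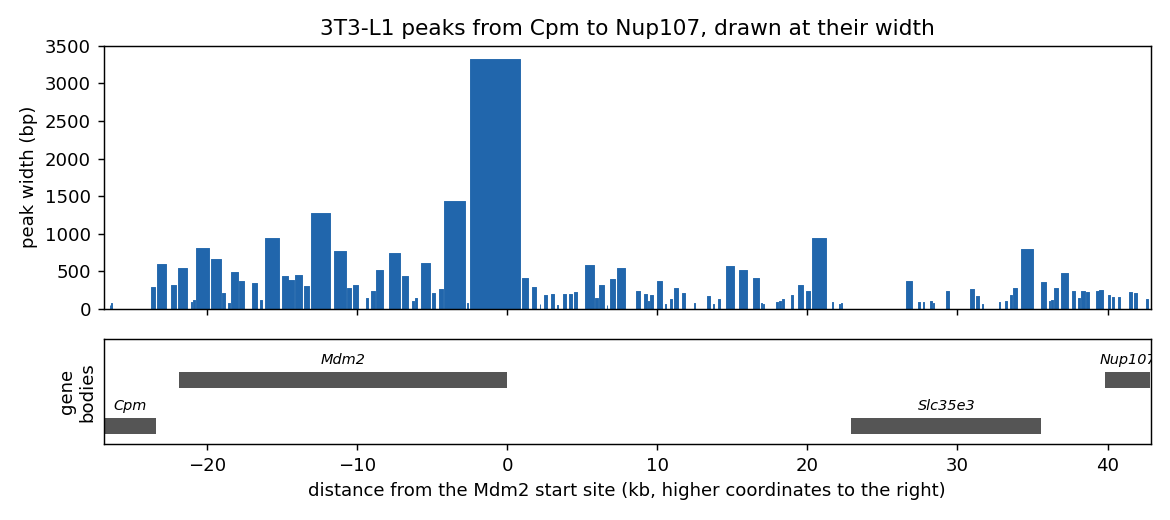
Each bar is a 3T3-L1 peak, drawn over its extent (x axis, distance from the Mdm2 start site in kb) and as high as its width in bp (y axis), with gene bodies as grey bars underneath. The peak of 3323 bp lies over the start site, and peaks follow each other closely over the whole of Mdm2, which is 74.4% covered.

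Coverage was lower away from Mdm2 on both sides, and peaks went on much farther toward lower coordinates. In the first 25 kb above the gene peaks covered 42.7%, from 25 to 50 kb 30.1% and from 50 to 100 kb 7.99%, and beyond that the block had ended. On the lower side the shares were 23.5% in the first 25 kb, 9.55% from 25 to 50 kb, 9.18% from 50 to 100 kb, 11.8% from 100 to 200 kb and 7.46% from 200 to 300 kb. Past the first 25 kb on that side the profile was therefore low and had no steady slope. Of 41 whole bins of 10 kb, 11 were covered to at least 20%, and these formed an unbroken run of 110 kb from 117660001 to 117770000. The other bins reached at most 19.1%.

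**Figure D2:**
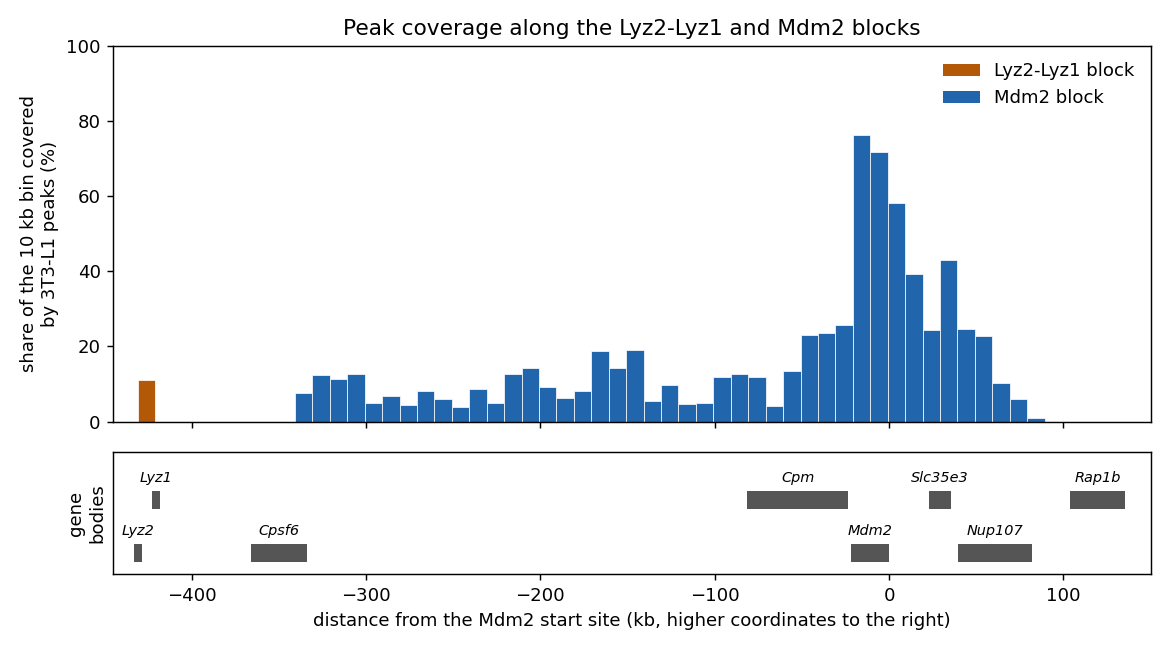
Bars give the share (%) of each 10 kb bin covered by 3T3-L1 peaks, against distance from the Mdm2 start site in kb, with gene bodies in grey underneath. Coverage is highest at Mdm2 (76.2% in the fullest bin) and at most 19.1% in the bins below 117660001. The bodies of Lyz1, Cpsf6 and Rap1b hold 0 peaks, although bins at their edges include ground outside them.

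The number of peaks and the ground they covered did not have their maxima in the same bin. The most peaks in a 10 kb bin, 20, lay from 117720001 to 117730000, between Mdm2 and Slc35e3, where 39.3% was covered and the median width was 130 bp. The most covered bin, from 117690001 to 117700000 inside Mdm2, was 76.2% covered by 15 peaks whose median width was 441 bp. So Mdm2 stood out from its neighbourhood by peak width more than by peak number.

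Cpm, which encodes a membrane-bound carboxypeptidase that removes basic residues from the ends of peptides, lies next to Mdm2 on the opposite strand (117629500 to 117687352). It had the most peaks of any gene, 52, but over a body of 57.9 kb, of which 15.1% was covered. Its peaks were narrower than those on Mdm2, with a median of 126 bp (range 50 to 852). The part of Cpm nearer to Mdm2 was covered more, at 20.3% above the gene's midpoint against 9.86% below it. A gap of 7270 bp inside Cpm, between a peak that ended at 117642032 and the next at 117649303, was among the 3 longest in the block. The 1.52 kb between Cpm and Mdm2 were 61.1% covered, by 3 peaks.

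Above Mdm2, the 22.9 kb up to Slc35e3 carried 44 peaks and were 46.6% covered, and 5 of the peaks centred there were wider than 500 bp. Slc35e3, a member of the family of nucleotide sugar and related transporters (117733678 to 117746358, minus strand), was overlapped by 15 peaks, of which 14 had their centres in the body, and was 22.8% covered. Its start lay under a peak of 356 bp from 117746319 to 117746674. Coverage was 33.8% in the part of the gene next to its start and 11.9% in the other. The 4.26 kb between Slc35e3 and Nup107 held 11 peaks and were 60.7% covered.

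Nup107, which encodes a scaffold subunit of the nuclear pore (117750621 to 117792736, minus strand), had 42 peaks covering 14.3% of it, with widths of 50 to 433 bp and a median of 129.5 bp. Coverage was 20.4% below the gene's midpoint and 8.19% above it, so the side away from Mdm2 was the sparser. The block ended inside Nup107 with a peak of 86 bp from 117790117 to 117790202, 2.5 kb short of the start site. The next gene, Rap1b, which encodes a small GTPase that acts in cell adhesion (117814597 to 117845974), had 0 peaks in its body, and the nearest member was 24.4 kb away.

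Below Cpm the block ran through 253 kb without a protein-coding gene, where 179 peaks covered 9.58% and the median width was 109 bp. None of these peaks was wider than 500 bp. The stretch holds noncoding RNA genes and pseudogenes. Of the 10 such entries in the segments, which include Gm25709 inside Cpm, 7 were overlapped by a member. Those without one were the shortest, Gm25709 (0.107 kb), Gm9002 (0.499 kb) and Gm9004 (0.756 kb). No share over all noncoding entries was computed, so nothing is read from this count. The long noncoding RNA gene Gm40770 (117400786 to 117418105) had the most, 12 peaks covering 8.31% of it. That is close to the 9.58% of the whole stretch.

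The lower edge of the block lay beside the start of Cpsf6, which encodes a subunit of the cleavage factor that sets the ends of messenger RNAs (117344667 to 117376998, minus strand). The first peak ran from 117377462 to 117377610 (149 bp), and the 463 bp between it and the gene, as well as the gene itself, held no peak. The outermost 10 kb at this edge held 10 peaks and were 15.5% covered, above the 7.09 peaks per 10 kb and 9.58% of the whole stretch up to Cpm. At the higher edge the outermost 10 kb held 6 peaks and were 6.09% covered. Beyond it the next 3T3-L1 peak, of 96 bp, came after 823 kb.

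The smallest block, 90 kb below the first peak at Cpsf6, held 8 peaks over 6.2 kb between 117281251 and 117287454. Lyz2 and Lyz1 encode lysozymes, the enzymes that break bacterial cell walls, Lyz2 mainly in macrophages and Lyz1 in Paneth cells of the gut. The first 3 peaks, of 78, 111 and 53 bp, lay in the body of Lyz2 (117277541 to 117282272, minus strand) at the end nearest its start site, and the third of them ended 98 bp from that site. The other 5, of 106, 270, 200, 159 and 126 bp, lay between the genes. The last ended 340 bp before the body of Lyz1 (117287795 to 117292868), at the end farther from that gene's start, and Lyz1 itself had 0 peaks. The promoter windows of both genes were free of members. On the lower side the next 3T3-L1 peak was 4175 kb away.

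The block between Acss3, a short-chain acyl-CoA synthetase gene, and Lin7a, which encodes a scaffold protein of cell junctions, touched no gene of the RefSeq table. It held 60 peaks over 43.3 kb from 107213417 to 107256721 and lay 10.0 Mb below the Lyz block. Acss3 ended 89.7 kb below it, the noncoding gene Gm29674 7.72 kb below, and Lin7a began 14.8 kb above. Peaks covered 49.6% of the block. They were 83 to 1421 bp wide with a median of 234.5 bp, against 128.5 bp in the Mdm2 block.

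Coverage varied along this block without a single maximum like that at Mdm2. The 3 whole 10 kb bins were covered to between 43.4% and 57.9%, and the outermost 10 kb to 53.9% at the lower edge and 41.2% at the higher. In the 8 whole bins of 5 kb it ranged from 31.4%, at 107250001 to 107255000, to 64.3%, at 107215001 to 107220000. The 11 peaks wider than 500 bp were spread over its length, among them the widest from 107244389 to 107245809 (1421 bp), one from 107233890 to 107235265 (1376 bp) and one from 107215248 to 107216500 (1253 bp). No peak was narrower than 83 bp, and the longest gap was 1736 bp. The nearest 3T3-L1 peaks outside were 6949 kb below and, on the upper side, 193 kb away, the latter a peak of 61 bp.

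**Figure D3:**
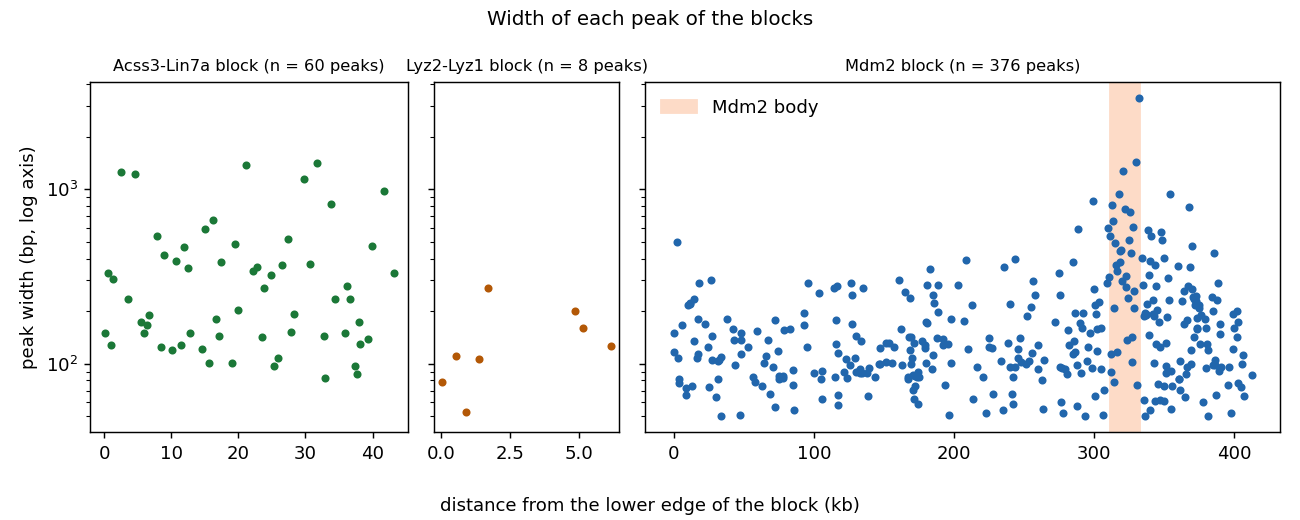
Points give the width (bp, log axis) of each of the 444 peaks against its distance from the lower edge of its block in kb, with 1 panel for each block and the Mdm2 body shaded. Wide peaks are spread over the Acss3-Lin7a block and gather at Mdm2 in the largest block, where the widest peak has 3323 bp.

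Members made up most of the widest and most of the narrowest peaks of the 3T3-L1 list. Of the 18 peaks of the list wider than 700 bp, 17 were members, and the remaining one, of 821 bp on chromosome 17, was the widest outside the blocks. That peak lay in another dense run, described below, so wide peaks were not particular to the blocks. Peaks wider than 500 bp were 3 of 10 in that run (30%) and 1 of 6 in another run on chromosome 10 (16.7%). Among members they were 31 of 444 (6.98%), and among all peaks outside the blocks 5 of 2001 (0.25%). The 2 short runs hold too few peaks for their shares to be ranked against the blocks. Of the 84 peaks narrower than 80 bp, 62 were members, 60 of them in the Mdm2 block and 2 in the Lyz block. The middle of the distributions differed little, with a median of 136 bp (quartiles 94 and 234) for members and 144 bp (108 and 196) for the other 2001 peaks. The SD of width was 254 bp among members and 71.6 bp among the others.

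Peaks outside the blocks piled up at a width near the narrow end of their range, and members did not. The most frequent width among the other 2001 peaks was 81 bp, shared by 106 of them, and 22 (1.10%) were narrower. None of the 444 members was 81 bp wide, while 63 (14.2%) were narrower. The C3H10T1/2 list had a step of the same kind at 124 bp, with 98 peaks of that width and 51 below it. This step was noticed after the widths had been seen, and its origin was not tested.

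**Figure D4:**
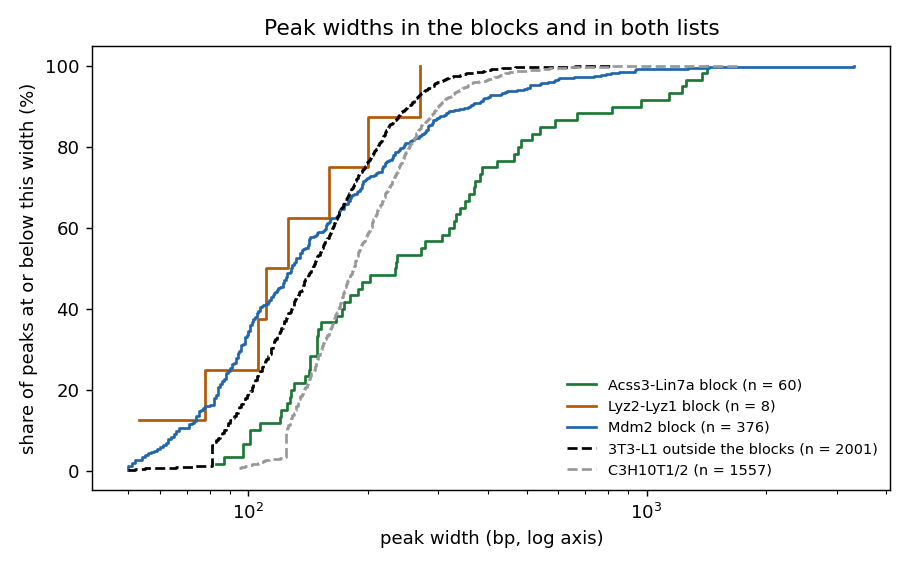
Lines give the share (%) of peaks at or below each width (bp, log axis) for the 3 blocks, for 3T3-L1 peaks outside them and for the C3H10T1/2 list. The dashed lines rise in a step at 81 bp and 124 bp, and the Mdm2 block starts rising at 50 bp without a step.

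Neighbouring peaks of the blocks lay close together, which follows from how the stretches were chosen. The median gap was 399 bp in the Mdm2 block (quartiles 177 and 1212), 393 bp in the Lyz block and 240 bp in the Acss3-Lin7a block (114 and 435). With members left out, neighbouring 3T3-L1 peaks were a median of 400 kb apart, counting spans across the blocks. Gaps of at most 100 bp made up 40 of 375 in the Mdm2 block and 9 of 59 in the Acss3-Lin7a block. The shortest gap was 2 bp in the former and 78 bp in the latter. Within the Mdm2 body 9 of 32 gaps were at most 100 bp, and all lay between 19 and 534 bp. The SD of the gaps was 1.35 times their mean in the Mdm2 block and 0.964 times in the Acss3-Lin7a block. Spacing was thus less even over the Mdm2 block as a whole, which joins the closely spaced peaks on Mdm2 with sparser stretches.

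**Figure D5:**
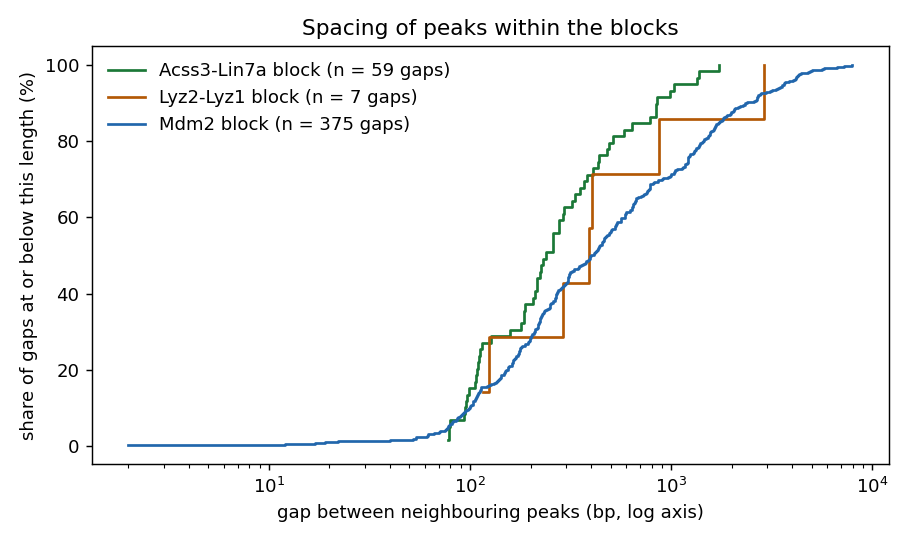
Lines give the share (%) of gaps between neighbouring peaks at or below each length (bp, log axis) in the 3 blocks. Gaps of the Acss3-Lin7a block end at 1736 bp, while those of the Mdm2 block reach 7989 bp.

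None of the 444 members overlapped a C3H10T1/2 peak, a count that allows a share of up to 0.676% by the limit of 3 counts and up to 0.827% by the exact 95% Clopper-Pearson interval, where 22.4% of all 2445 3T3-L1 peaks did (548 peaks, 95% Clopper-Pearson interval 20.8 to 24.1). Among the 2001 peaks outside the blocks the share was 27.4% (25.4 to 29.4). The limit and the intervals treat each peak as an independent site, which members of a block are not. The limits for 0 of 444 are therefore too low, and no bound for the blocks is read from them. With 1 list per line, none of these ranges covers variation between replicates. C3H10T1/2 peaks nearest to the blocks lay 130 kb below the Lyz block and 254 kb above the Mdm2 block, at 118043833 to 118044118. Around the Acss3-Lin7a block they lay 4590 kb below and 929 kb above.

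A dense run elsewhere in the same list was shared by the lines. On chromosome 17, from 39843356 to 39848806, 10 peaks covered 60.2% of 5.45 kb, and 10 of 10 overlapped a C3H10T1/2 peak. In whole bins of 5 kb, a similar length, coverage reached 64.3% in the Acss3-Lin7a block and 85.5% in the Mdm2 block. The widest peak of the chromosome 17 run had 821 bp. The genes or repeats under this run are not given here, and why it is dense in both lists was not tested.

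Genes of the p53 pathway other than Mdm2 had no such runs. In a window of the gene and 10 kb on each side, 5 of 35 genes of that pathway (14.3%) had a 3T3-L1 peak, where 3.98% of 21631 protein-coding genes did. Mdm2, whose stretch was chosen for its peaks, was among the 5. With the blocks left out it was 4 of 35 (11.4%), against 3.94% of all genes. In C3H10T1/2 it was 4 of 35 (11.4%), against 3.65% of all. The list was written with earlier results of these data known, so nothing is read from these shares. Mdm2 had 64 peaks of 3T3-L1 in that window. The other 4 genes had 1 each. They were Chek2, a DNA damage kinase (peak at 110839813 to 110840012 on chromosome 5, inside the gene), Apaf1, which starts the caspase cascade (91073611 to 91073740 on chromosome 10, inside the gene), Phlda3, an Akt inhibitor that p53 induces (2.14 kb away), and Xpc, a DNA damage sensor (9.17 kb away). Chek2, Phlda3 and Xpc also had a C3H10T1/2 peak there, and Cdkn2a, whose Arf product blocks Mdm2, had a C3H10T1/2 peak alone. Mdm4, the close relative of Mdm2, and Trp53 itself had none in either list.

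Paralogs and partners of the genes in the Mdm2 and Lyz blocks were counted in the same way. In the gene and 10 kb on each side, 3.98% of all genes had a 3T3-L1 peak and 3.65% a C3H10T1/2 peak, so a count of 0 among 33 genes is near the background. Among these 33, which include relatives of Cpm, Slc35e3, Rap1b and the lysozymes, the other subunits of the Nup107 subcomplex and the partners of Cpsf6, 0 had a peak of either list within the gene and 10 kb on each side. Within 100 kb there was a 3T3-L1 peak at Nup37 (68.3 kb away) and Nup85 (20.7 kb), both of the Nup107 subcomplex, where 13.9% of all genes had one (13.9% without the blocks too). A C3H10T1/2 peak lay within 100 kb of Ahctf1 and Seh1l, of the same subcomplex, and of Rap1a and Cpn1, where 12.1% of all genes had one.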

How the data were processed

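Values are the start and end positions, in bp, that the authors deposited, 1 list per line. The submitters' processing notes name mm10 and, without roles or settings, MACS2, Bowtie2, bedtools, SAMtools and CASAVA 1.8. How the 2 ChIP libraries and the 2 inputs of a line were combined, and how close calls were joined, was not given in the sources used here, and this can change the number, width and separation of peaks. Positions were read as BED (start counted from 0) and are printed counted from 1.

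Members were the 3T3-L1 peaks that overlapped a segment by at least 1 bp. Blocks, gaps, covered bp and overlaps were computed in Python 3.11.15 with pandas 2.3.3 and NumPy 2.4.6, intervals with SciPy 1.17.1. The functions were tested on simulated data with known answers. Genes and promoter windows came from RefSeq (GRCm38.p6), which gives gene boundaries without exons, so exon, intron and UTR positions are not stated. Strand and start sites came from the promoter windows.

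The named genes were the 8 of the segments (Mdm2, Cpm, Slc35e3, Nup107, Cpsf6, Rap1b, Lyz1, Lyz2), others that overlap or flank a segment, and members of the p53 pathway and paralog lists with a peak. Segments, members and lists were chosen with earlier results of these data known. No test was made, because the segments were chosen on the same peaks and no value per library was analysed.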

Additional observations from a re-analysis of the deposited data

How the results depend on the processing

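The lists hold no score, so a stricter calling threshold could not be applied, and peaks of at least the median width of 144 bp were counted instead. That is the median of all 2445 3T3-L1 peaks, so by construction the filter splits the whole list into near-equal parts. Losses of that order are set by the filter and are not read as a trait of the blocks or genes. This filter acts on width, so that it kept a larger share of the peaks on Mdm2 follows from their widths given above. With these alone the blocks held 205 peaks in place of 444, Cpm 23 in place of 52, Nup107 19 in place of 42, Slc35e3 8 in place of 15 and Lyz2 0 in place of 3, while Mdm2 kept 25 of 33. Since narrow peaks were removed, the median width became 237 bp in the Mdm2 block (128.5 bp with all peaks) and 200 bp in the Lyz block (118.5 bp), and the median gap 375.5 bp in the Acss3-Lin7a block (240 bp) and 1509 bp in the Lyz block (393 bp). With a largest gap of 5000 bp the 3 blocks became 8, holding 443 of the 444 peaks. With 10000 bp or 50000 bp they stayed 3 with the same edges. In bins of 5 kb and 20 kb the fullest bin was covered to 85.5% and 64.9%. In a window of 100 kb, where 13.9% of all genes had a 3T3-L1 peak and 12.1% a C3H10T1/2 peak, 9 genes of the p53 list (25.7%) had a 3T3-L1 peak (8 when the blocks were left out, in place of 4 within 10 kb) and 9 a C3H10T1/2 peak. Of the paralogs 2 (6.06%) had a 3T3-L1 peak (2 without the blocks) and 4 (12.1%) a C3H10T1/2 peak. The other alternatives, 30 of 46 values, stayed within 1.5 times the value reported, among them 0 overlaps with C3H10T1/2 peaks under each rule. Leaving out a replicate could not be done, because no value per library was analysed. No paired analysis was possible because the lists carry no replicate. The depth is unknown, and whether it limited which narrow peaks were called was not tested.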

Other observations

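A short run of 6 peaks of 3T3-L1 followed on chromosome 10 after the 823 kb without a peak above the Mdm2 block. It ran from 118613554 to 118622135, with widths of 96, 231, 99, 163, 332 and 566 bp, and covered 17.3% of 8.58 kb. Its nearest annotated genes were both noncoding, Ifngas1, an RNA transcribed beside the interferon gamma gene, 57 kb below, and Gm33337 92.3 kb above. None of its 6 peaks overlapped a C3H10T1/2 peak, where 22.4% of all 3T3-L1 peaks did. The exact 95% Clopper-Pearson interval for 0 of 6 reaches 45.9%. None was narrower than 80 bp, where 3.44% of all 3T3-L1 peaks were. With 6 peaks, neither count is read as a trait of the run.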
